A study of Mus musculus with 9 samples.

Results

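The BCL2 family was examined through 10 of its genes: the survival members Bcl2, Bcl2l1 and Mcl1, the pore-forming death effectors Bax and Bak1, and the BH3-only members Bcl2l11, Bid, Bad, Bbc3 and Pmaip1. All probe sets that the platform annotation assigns to a single symbol among these genes were taken, which gave 29 of the 45037 probe sets tested and covered 9 of the 10 genes. Bax was not analysed here. Mcl1 had 6 probe sets, Bcl2 and Bcl2l11 had 5 each, Bcl2l1 had 4, Bid had 3, Bak1 and Bad had 2 each, and Bbc3 and Pmaip1 had 1 each.

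The family sets the threshold at which a cell opens the outer mitochondrial membrane and releases cytochrome c. Survival members hold the effectors BAX and BAK in check, and BH3-only proteins, which are induced or activated by growth factor loss, DNA damage or death receptor signals, bind the survival members and free or activate the effectors. Myeloid cells differ widely in lifespan, and granulocytes in particular are known to depend on MCL1 and on cytokines such as GM-CSF, G-CSF and IL-5 for survival, while macrophages persist longer.

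The series holds 9 Affymetrix mouse arrays, each hybridised with RNA from 400000 CD11b-enriched lung cells of a sorted label, taken from female 4get mice on a BALB/c background aged 6 to 8 weeks. 4get mice carry a green fluorescent reporter of Il4 expression, and every mouse had received 0.5 µg of IL-25 in 50 µL by the intratracheal route on each of 4 days, so that no array represents an untreated lung. Cells of 4 donors were pooled for each array. Of the labels, T2M (type 2 myeloid; 3 arrays) was sorted as reporter-positive, IL-5 receptor alpha-negative, F4/80-positive, MHC class II-low and intermediate for Gr-1. Eosinophils (2 arrays) were sorted as reporter-negative, receptor-positive, F4/80-negative, MHC class II-low and Gr-1-high. Neutrophils (2 arrays) were sorted as reporter-negative, receptor-negative, F4/80-negative, MHC class II-low and Gr-1-positive, and macrophages (2 arrays) as reporter-negative, receptor-negative, F4/80-positive, MHC class II-positive and Gr-1-negative.

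The labels were set against marker genes. None of the eosinophil, neutrophil and macrophage labels had the highest mean level of the genes of its name. The mean level of 7 measured eosinophil genes of 9 listed ran from 9.18 to 9.63 (log2) on T2M arrays, and from 6.06 to 6.87 on eosinophil-labelled, 5.31 to 7.34 on neutrophil-labelled and 4.38 to 4.45 on macrophage-labelled arrays. The mean of 10 measured neutrophil genes of 11 was 7.66 to 8.68 on T2M arrays, and highest at 11.45 to 11.87 on eosinophil-labelled arrays, with 7.75 to 9.16 on neutrophil-labelled and 6.69 to 7.51 on macrophage-labelled arrays. For 9 measured macrophage and monocyte genes of 10 it was 9.06 to 9.73 on T2M, 8.64 to 8.74 on eosinophil-labelled, 10.8 on both neutrophil-labelled and 9.19 to 9.39 on macrophage-labelled arrays. Lung epithelial, endothelial and stromal genes (10 of 10 measured) averaged 8.54 to 8.76 on T2M arrays. They averaged 7.91 to 7.94 on eosinophil-labelled, 7.31 to 8.18 on neutrophil-labelled and 6.56 to 6.81 on macrophage-labelled arrays. Each result below is therefore given by the label of the arrays, and the part of these cell type genes in it was not tested. In sorted bulk RNA, fewer cells that express a gene and less of its RNA per cell cannot be told apart.

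Depth does not apply to arrays, and the number of arrays limits the precision. The macrophage-labelled pair correlated at 0.994 over all probe sets, against 0.915 to 0.970 for other pairs of 1 label, and whether it holds separate pools or the same RNA on both arrays was not tested. Signal of the actin control probe sets at the 3′ end exceeded that at the 5′ end by 0.61 on T2M array 1 and 0.54 on eosinophil-labelled array 1, and by -0.10 to 0.03 on the other 7 arrays. For the Gapdh control probe sets the same excess was 3.43, 2.35 and 2.97 on T2M arrays, against 2.41 and 1.09 on eosinophil-labelled, 2.20 and 1.46 on neutrophil-labelled and 1.02 and 1.20 on macrophage-labelled arrays. It was above the macrophage label on every T2M array, and its part in the T2M minus macrophage differences was not tested. In 16 of the 29 member probe sets (55.2%, against 27.7% of all probe sets) T2M array 1 and eosinophil-labelled array 1 both held the lowest value of their label. In 5 of them, 3 of Bcl2l1 and 1 each of Bcl2l11 and Bak1, they did so by over 1 on the log2 scale (17.2%, against 1.53% of all probe sets).

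Differences are log2 of the first label minus the second, from a limma fit over all probe sets, with a standard error (SE). Calls rest on p-values adjusted by Benjamini and Hochberg over all 45037 probe sets, with a limit of 0.05. T2M cells had more Bcl2 (1 of 5 probe sets called) and less Bcl2l11 (2 of 5) than eosinophil-labelled cells. They had more Bcl2l1 (1 of 4) and less Bak1 (1 of 2), Bid (1 of 3) and Bad (1 of 2) than macrophage-labelled cells. Among these calls only that of Bcl2 was on the brightest probe set of its gene, so the others hold for the called probe sets. Against eosinophil-labelled arrays, 1 member probe set was called higher and 2 lower in T2M, which is 10.3% of the members, beside 3.16% of all probe sets called in that comparison (1.00% higher and 2.15% lower). Against macrophage-labelled arrays, 1 was higher and 3 lower (13.8% of members, against 12.6% of all, 4.78% higher and 7.85% lower), a share near that of all probe sets. Against neutrophil-labelled arrays limma called 0 (1.79% of all, 0.855% higher and 0.930% lower), with 9 of 29 at an unadjusted p under 0.05. Of all 45037 probe sets, 6943 were under that limit in this comparison, 6864 against eosinophils and 14607 against macrophages. The median difference over the members was -0.46 against eosinophils, -0.24 against neutrophils and -0.09 against macrophages, beside 0.05, -0.01 and 0.17 over all probe sets. Over the 22518 probe sets left by a filter on dim ones, the median of all was -0.245 against macrophages, so the place of the members relative to it depends on that filter. Of those, 1305 were called against eosinophils, 924 against neutrophils and 4625 against macrophages, beside 4, 0 and 6 of the 26 members left. These 3 comparisons share the T2M arrays.

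**Figure D1:**
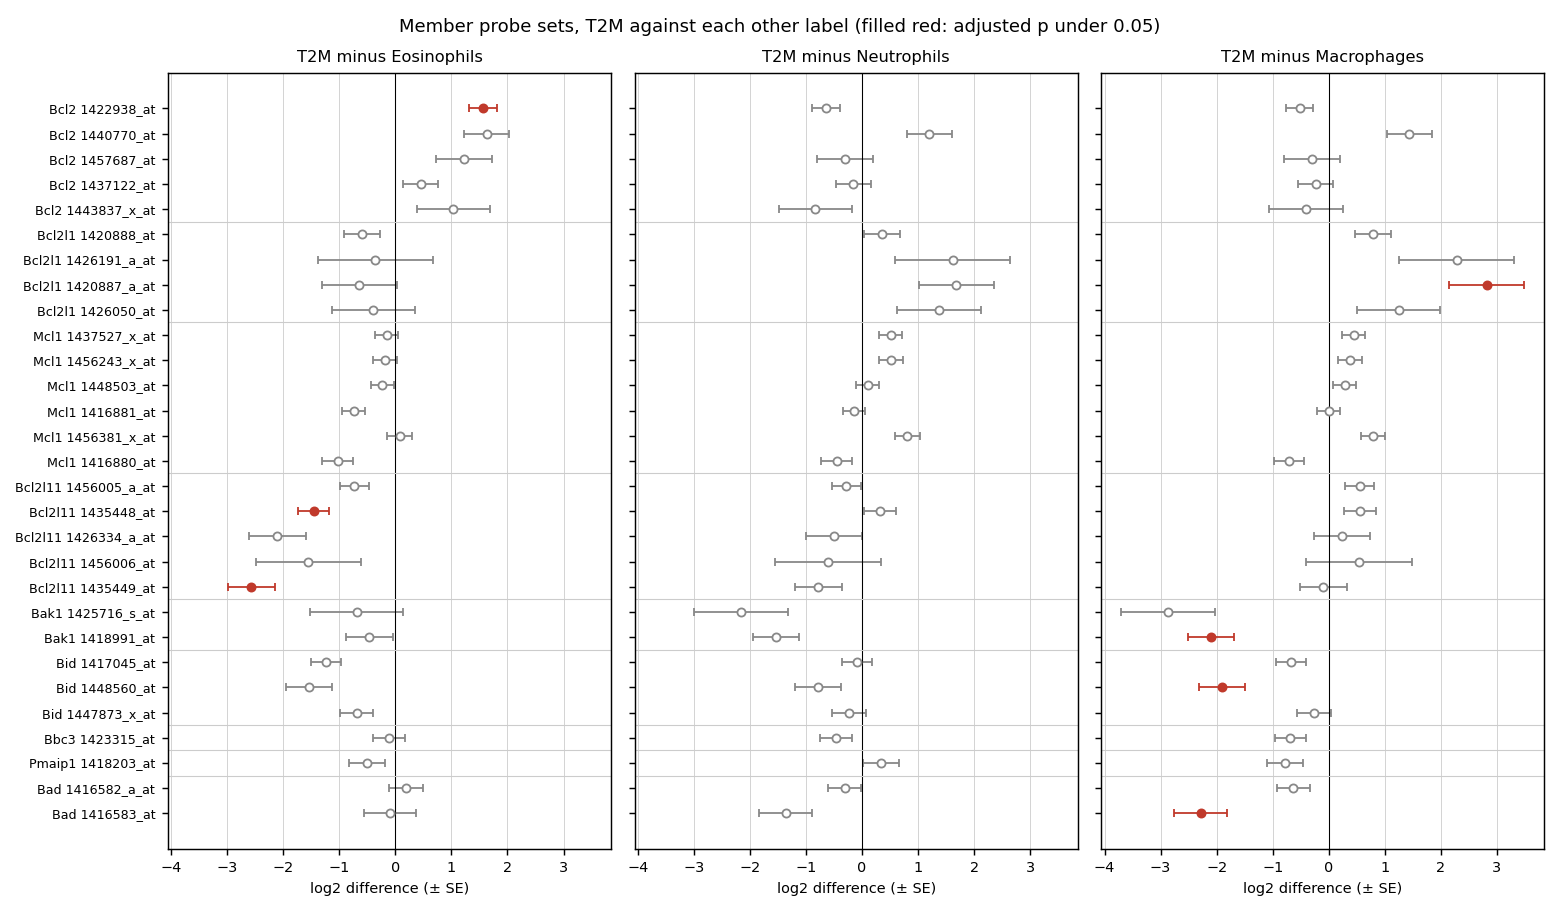
Log2 difference with its standard error for each of the 29 member probe sets (rows, grouped by gene), T2M minus each other label (panels), with filled red points for probe sets called by limma. Bcl2 and Bcl2l11 lie on opposite sides of 0 in T2M minus eosinophils, and Bcl2l1 lies opposite to Bak1 in T2M minus macrophages.

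Eosinophil-labelled cells had more Bcl2l11 (4 of 5 probe sets called) and Bcl2l1 (2 of 4) than macrophage-labelled cells. They had less Bcl2 (1 of 5) and Bad (1 of 2). This made 6 member probe sets called higher and 2 lower (27.6%, beside 12.9% of all probe sets, 4.75% higher and 8.12% lower). With 1 probe set per gene, 3 of 9 members and 3163 of 18193 in all were called in this pair. Without dim probe sets, 9 of 26 members and 5035 of 22518 in all were called there, so the share of all depends on that filter. Against neutrophil-labelled arrays, eosinophil-labelled arrays had 1 probe set higher, of Bcl2l11, and 1 lower, of Bcl2 (6.90% of members, beside 5.68% of all, 2.83% higher and 2.85% lower). Neutrophil-labelled against macrophage-labelled arrays gave 0 limma calls (1.50% of all, 0.722% higher and 0.779% lower), with 3 of 29 at an unadjusted p under 0.05, beside 7111 of all 45037. Averaging the macrophage-labelled pair to 1 sample, so that only 4 residual degrees of freedom remained, left 3 of the 17 called member differences past the threshold, all with the same sign. Those 3 were Bcl2 in both eosinophil comparisons and Bcl2l11 probe set 1435448_at in eosinophils minus neutrophils. Leaving out T2M array 1 and eosinophil-labelled array 1 together left 1 eosinophil-labelled array. In that fit the calls between T2M and eosinophils ended, with their signs kept, and no new call is read from it. The same limit applies below wherever only 1 array of a label was left in a fit.

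**Figure D2:**
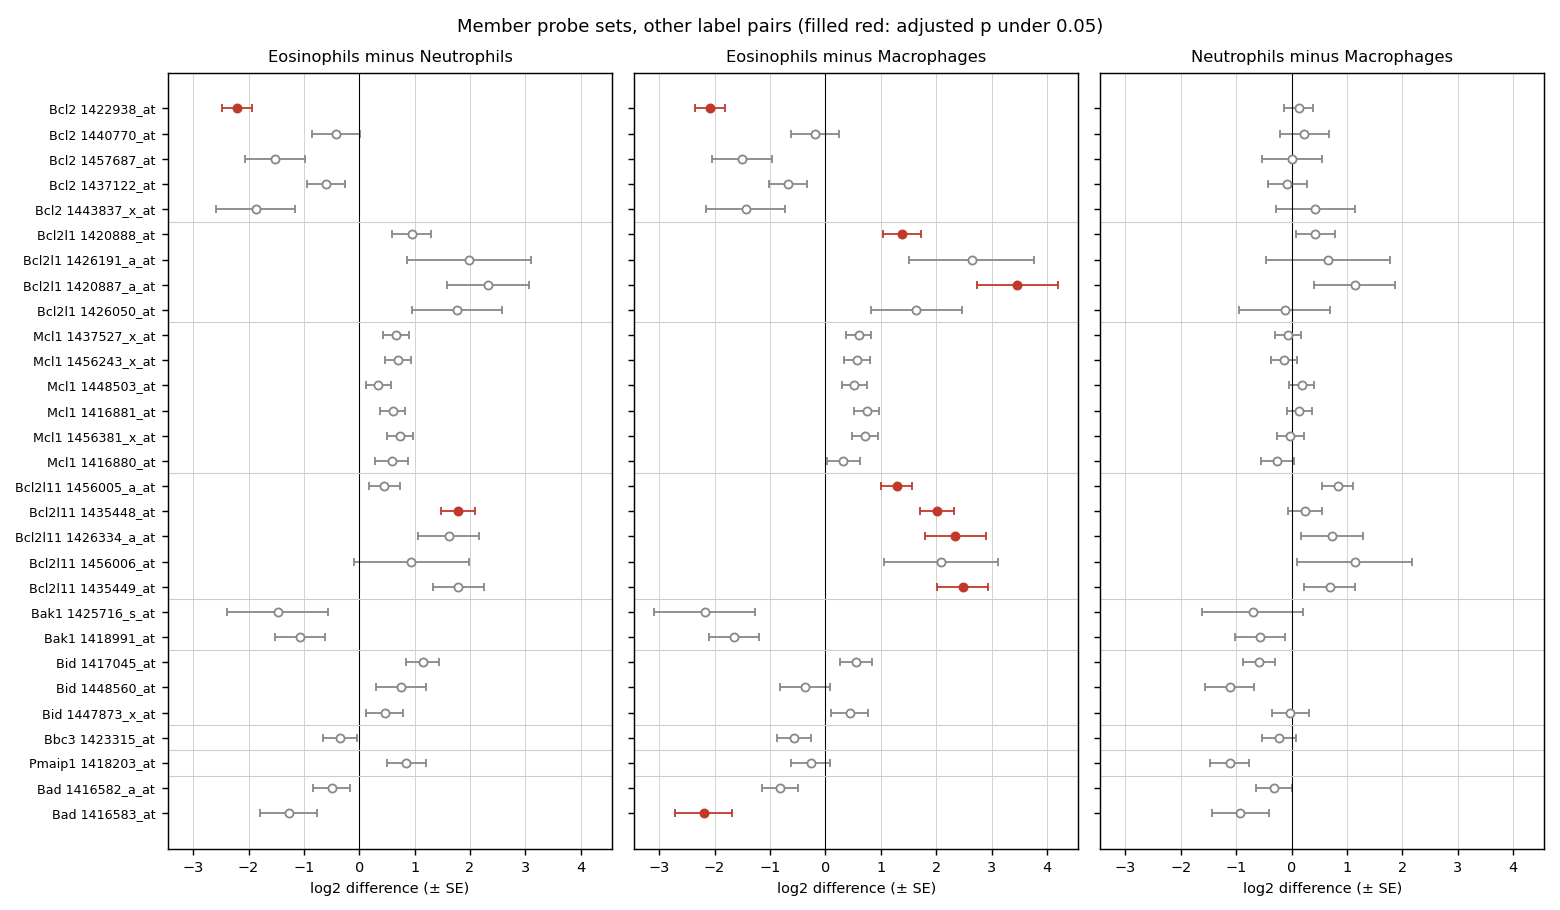
Log2 difference with its standard error for each of the 29 member probe sets in the 3 label pairs without T2M, with filled red points for probe sets called by limma. The calls in eosinophils minus macrophages fall on Bcl2 and Bad to the left of 0 and on Bcl2l1 and Bcl2l11 to the right.

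Bcl2, Bcl2l1 and Bcl2l11 hold 13 of the 17 called differences, and 30, 24 and 30 of the 174 tested over the members. For these genes, the 250 bases before the Bcl2 start, both Bcl2l11 starts and 1 of 3 Bcl2l1 starts, the one with a motif match, are shown. They are as RefSeq gives them on GRCm38.p6, 5′ to 3′ on the gene's strand. All windows were searched on both strands for the STAT motif TTCNNNGAA, the GATA motif AGATAA, the FOXO motif GTAAACA and the E-box CACGTG, whose matches are in capitals, and for the GC box GGGCGG, whose matches are not. Of 32851 windows of this length before annotated starts, 7.02% held the first, 9.99% the second, 3.17% the third, 6.02% the fourth and 32.7% the GC box.
Bcl2 (chr1:106714291-106714540, minus strand): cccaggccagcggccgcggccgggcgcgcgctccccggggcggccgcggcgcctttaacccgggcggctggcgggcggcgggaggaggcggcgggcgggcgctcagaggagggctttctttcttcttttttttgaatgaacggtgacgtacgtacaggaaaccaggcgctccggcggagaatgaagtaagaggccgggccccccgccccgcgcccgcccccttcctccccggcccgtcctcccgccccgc
Bcl2l11, upstream start (chr2:128125788-128126037, plus strand): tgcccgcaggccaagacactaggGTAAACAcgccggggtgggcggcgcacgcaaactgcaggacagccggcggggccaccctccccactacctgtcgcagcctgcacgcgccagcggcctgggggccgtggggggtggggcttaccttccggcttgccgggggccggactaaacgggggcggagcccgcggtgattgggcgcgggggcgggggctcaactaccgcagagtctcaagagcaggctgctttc
Bcl2l11, downstream start (chr2:128127325-128127574, plus strand): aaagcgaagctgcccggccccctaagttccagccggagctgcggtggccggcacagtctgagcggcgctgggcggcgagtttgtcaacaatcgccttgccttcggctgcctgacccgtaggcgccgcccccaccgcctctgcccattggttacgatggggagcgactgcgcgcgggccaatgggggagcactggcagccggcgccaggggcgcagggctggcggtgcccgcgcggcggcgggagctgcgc
Bcl2l1, start with a GATA match (chr2:152828490-152828739, minus strand): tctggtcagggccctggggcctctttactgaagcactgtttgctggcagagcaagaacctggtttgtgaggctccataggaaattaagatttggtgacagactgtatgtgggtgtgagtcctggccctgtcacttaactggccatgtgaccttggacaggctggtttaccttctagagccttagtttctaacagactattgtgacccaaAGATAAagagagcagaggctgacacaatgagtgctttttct

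The windows differ in base composition. The Bcl2 window was 74.8% G and C and the Bcl2l11 windows 72.0% and 73.2%, whereas the 3 Bcl2l1 windows were 48.4%, 53.2% and 47.6%, beside a median of 52.4% over all windows. GGGCGG matched 7 times before Bcl2, 3 and 2 times before the Bcl2l11 starts and 0 times before the Bcl2l1 starts. The capitals mark a FOXO match that begins 227 bases before the upstream Bcl2l11 start and a GATA match 41 bases before a Bcl2l1 start. The other 2 Bcl2l1 windows held none of the 4 capitalised motifs. A match describes letters only, and the arrays did not measure binding.

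Bcl2 encodes the founding survival member. Its brightest probe set, 1422938_at, was at 8.18, 8.64 and 8.38 (log2) on the T2M arrays, against 6.71 and 6.97 on eosinophil-labelled, 9.24 and 8.85 on neutrophil-labelled and 9.04 and 8.80 on macrophage-labelled arrays. All 3 T2M arrays lay above both eosinophil-labelled arrays and below both of the neutrophil label and of the macrophage label. The level was 2.95-fold higher in T2M than in eosinophil-labelled cells (log2 difference 1.56, SE 0.24, adjusted p = 0.0163), and the differences of -0.65 from neutrophils and -0.52 from macrophages did not pass (adjusted p = 0.248 and 0.179). In this order of levels, with neutrophils highest and eosinophils lowest, the labels that neighbour each other differed by the test only at the step between T2M and eosinophils. Eosinophil-labelled arrays were also lower than neutrophil-labelled (-2.21, SE 0.27, adjusted p = 0.00561) and macrophage-labelled arrays (-2.08, SE 0.27, adjusted p = 0.00281). Both of these calls held whichever of the 9 arrays was omitted. The T2M call ended without T2M array 2 or 3, either eosinophil-labelled array or either macrophage-labelled array, with differences of 1.43 to 1.69 and adjusted p up to 0.0811. It also ended without T2M and eosinophil-labelled array 1 together (1.54, adjusted p = 0.0788).

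A further Bcl2 probe set had another order. Probe set 1440770_at was at 6.74, 7.78 and 8.23 on T2M arrays, against 5.85 and 6.06 on eosinophil-labelled, 6.30 and 6.46 on neutrophil-labelled and 6.21 and 6.09 on macrophage-labelled arrays. Every T2M array was above every other array here, whereas 1422938_at was below the neutrophil and macrophage labels in T2M. None of the 3 differences passed: 1.63 against eosinophils (adjusted p = 0.0761), 1.20 against neutrophils (adjusted p = 0.189) and 1.44 against macrophages (adjusted p = 0.0524). Without T2M array 1, the lowest of the 3, they became 2.05, 1.62 and 1.86 and all were called (adjusted p = 0.0105, 0.0281 and 0.0069). For T2M minus eosinophils all 5 Bcl2 probe sets gave a positive difference, from 0.45 to 1.63, with 1 called. Probe sets 1440770_at, 1457687_at, 1437122_at and 1443837_x_at averaged below 6.65, the 95th percentile of 28 genes of other organs taken as a background level, so only 1422938_at averaged above it.

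Bcl2l1 encodes BCL-XL, and its shorter splice form, BCL-XS, is known to promote death. The array values do not separate these forms. Probe set 1420887_a_at was at 6.80, 8.57 and 8.65 on T2M arrays, against 7.73 and 9.58 on eosinophil-labelled, 6.54 and 6.11 on neutrophil-labelled and 5.22 and 5.15 on macrophage-labelled arrays. Array 1 stood well below the rest in both T2M and eosinophils, and even so all arrays of these labels were above all arrays of the other labels. The level was higher in T2M than in macrophage-labelled cells (2.82, SE 0.67, adjusted p = 0.0331) and higher in eosinophil-labelled than in macrophage-labelled cells (3.46, SE 0.74, adjusted p = 0.0202). The macrophage-labelled mean of 5.19 was below the background level of 6.65, so no fold is given. T2M did not pass against eosinophils (-0.65, adjusted p = 0.779) or neutrophils (1.68, adjusted p = 0.281). The T2M call ended without T2M array 2 or 3 or either macrophage-labelled array, and the eosinophil call without eosinophil-labelled array 2 or either macrophage-labelled array. Differences over the 9 fits ran from 2.49 to 3.42 for T2M and from 2.54 to 4.39 for eosinophils.

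All 4 Bcl2l1 probe sets had eosinophils highest and T2M next, and 1426050_at had neutrophils lowest where the other 3 had macrophages lowest. Probe set 1420888_at, the brightest, was at 7.61, 8.36 and 8.24 on T2M arrays, 8.30 and 9.02 on eosinophil-labelled, 7.90 and 7.52 on neutrophil-labelled and 7.35 and 7.21 on macrophage-labelled arrays. Its T2M arrays overlapped both the eosinophil-labelled and the neutrophil-labelled arrays, and it was called only between eosinophils and macrophages (1.38, SE 0.35, adjusted p = 0.0388), a call that ended without T2M array 2 or 3, eosinophil-labelled array 2 or either macrophage-labelled array (differences 1.02 to 1.74). Probe set 1426191_a_at had the widest spread, at 6.44, 8.61 and 8.86 on T2M and 6.64 and 10.03 on eosinophil-labelled arrays, against 5.84 and 6.86 on neutrophil-labelled and 5.61 and 5.77 on macrophage-labelled arrays, and was not called in any pair. A further fit left out T2M array 1 and eosinophil-labelled array 1, the arrays with the actin difference. It held 1 eosinophil-labelled array, so only differences are given. For T2M minus neutrophils, 1420887_a_at, 1426191_a_at and 1426050_at were then at 2.28, 2.38 and 2.03. All 4 probe sets kept a positive difference for T2M minus macrophages. Probe set 1426050_at averaged 4.84 over the 9 arrays, below the background level.

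Mcl1 encodes a short-lived survival protein on which granulocytes are known to depend. Its 6 probe sets were bright on every array, from a lowest value of 10.49 to a highest of 12.76, and limma called none in any of the 6 label pairs. At an unadjusted p under 0.05 were 16 of 36 differences, beside 6864 to 14607 of all 45037 probe sets in each pair. Probe set 1416881_at was at 11.73, 11.94 and 11.81 on T2M arrays, against 12.54 and 12.61 on eosinophil-labelled, 11.83 and 12.11 on neutrophil-labelled and 11.92 and 11.74 on macrophage-labelled arrays. Both eosinophil-labelled arrays were above all others, but the T2M difference of -0.75 did not pass (SE 0.20, adjusted p = 0.107). Probe set 1416880_at gave -1.03 in the same comparison (adjusted p = 0.0979), while the other 4 were between -0.24 and 0.07. For T2M minus macrophages the probe sets disagreed in sign, from -0.71 (1416880_at, adjusted p = 0.121) to 0.79 (1456381_x_at, adjusted p = 0.0503). The suffix _x_at marks probe sets with probes that may bind other transcripts, and 3 of the 6 carry it.

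**Figure D3:**
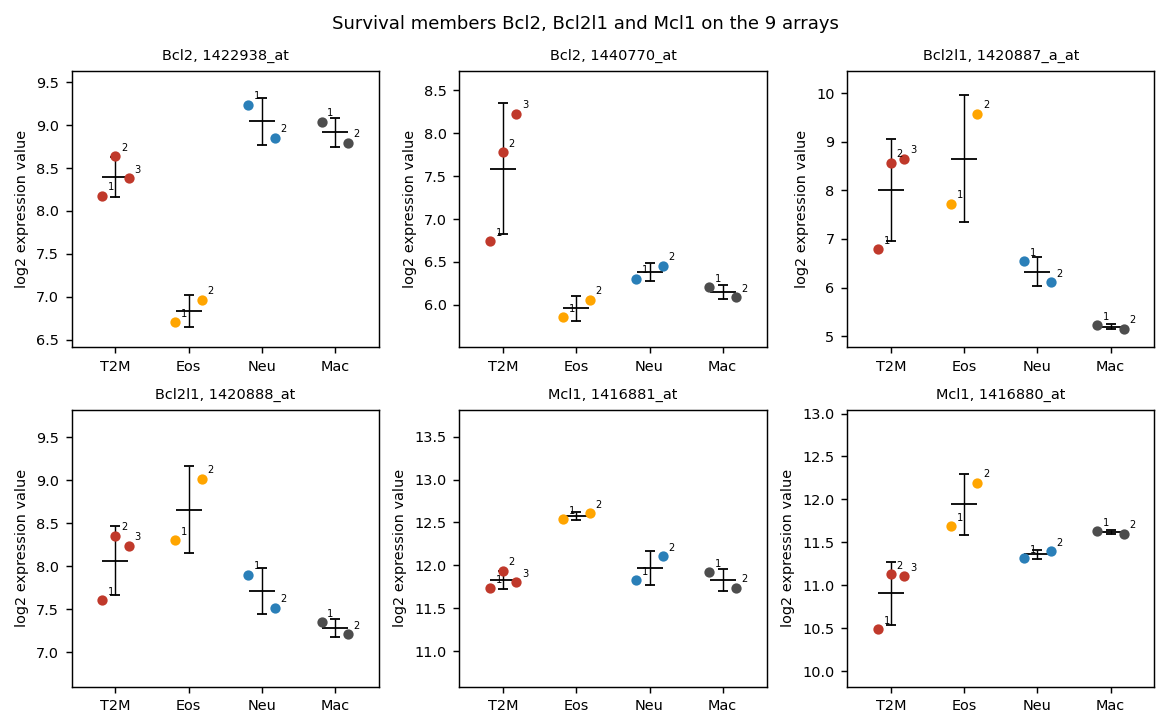
Log2 expression values of 6 probe sets of the survival members on each array (points, numbered by array within its label: T2M, eosinophils, neutrophils, macrophages), with the mean and SD of each label in black and a separate axis per panel. Bcl2 1422938_at is lowest on the eosinophil-labelled arrays, and Bcl2l1 1420887_a_at is lowest on the macrophage-labelled arrays at 5.22 and 5.15. The Mcl1 panels show 1416881_at and 1416880_at, whose lowest label mean is in T2M, unlike the Mcl1 probe sets not shown.

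Bcl2l11 encodes BIM, a BH3-only protein that binds all survival members and is known to be raised by cytokine withdrawal. Probe set 1435448_at was at 10.49, 10.58 and 10.96 on T2M arrays, against 12.07 and 12.21 on eosinophil-labelled, 9.98 and 10.74 on neutrophil-labelled and 10.19 and 10.05 on macrophage-labelled arrays. Both eosinophil-labelled arrays exceeded every other array by over 1 on the log2 scale. T2M was 2.75-fold lower than eosinophils (-1.46, SE 0.28, adjusted p = 0.0342), and eosinophils were higher than neutrophils (1.78, SE 0.31, adjusted p = 0.0171) and macrophages (2.02, SE 0.31, adjusted p = 0.00548). Below eosinophils, T2M, neutrophils and macrophages followed in that order, and T2M passed against neither (0.32, adjusted p = 0.687, and 0.56, adjusted p = 0.201). Omitting 1 array at a time ended the T2M call in 7 of 9 fits, all but those without a neutrophil-labelled array, with differences from -1.60 to -1.37 and adjusted p up to 0.191. Against neutrophils the eosinophil call ended without either eosinophil-labelled array (1.40 to 2.16 over the 9 fits), and against macrophages without either macrophage-labelled array (adjusted p up to 0.059). Without T2M and eosinophil-labelled array 1 together, the T2M call (-1.44, adjusted p = 0.153) and the call against neutrophils (1.85, adjusted p = 0.0633) ended.

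Probe set 1435449_at showed the widest called Bcl2l11 difference. It was at 6.43, 7.10 and 5.82 on T2M arrays, against 8.70 and 9.35 on eosinophil-labelled, 6.86 and 7.62 on neutrophil-labelled and 6.72 and 6.38 on macrophage-labelled arrays. The T2M arrays overlapped those of the neutrophil and macrophage labels and lay below both eosinophil-labelled arrays, and were called lower (-2.57, SE 0.42, adjusted p = 0.0199). Eosinophils were higher than macrophages (2.48, SE 0.46, adjusted p = 0.0123), and 1.78 above neutrophils without passing (adjusted p = 0.0661). The T2M call ended without either eosinophil-labelled or either macrophage-labelled array (-2.90 to -2.25), and the macrophage call without eosinophil-labelled array 2 or either macrophage-labelled array (2.15 to 2.80). Without T2M and eosinophil-labelled array 1 together the T2M difference was -2.88 and not called (adjusted p = 0.0799). The T2M mean of 6.45 and the macrophage-labelled mean of 6.55 were below the background level.

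All 5 Bcl2l11 probe sets were highest in the eosinophil label and gave a negative difference for T2M minus eosinophils, from -2.57 to -0.73, with 2 called. The brightest, 1456005_a_at, was at 11.56, 11.34 and 11.65 on T2M and 12.20 and 12.30 on eosinophil-labelled arrays, against 12.15 and 11.44 on neutrophil-labelled and 10.92 and 11.01 on macrophage-labelled arrays, and did not pass for T2M minus eosinophils (-0.73, adjusted p = 0.21). Probe set 1426334_a_at gave -2.11 there (SE 0.50, adjusted p = 0.0713). Without eosinophil-labelled array 1, where 1 array of that label remained, its difference was -2.95. Both were called higher in eosinophils than in macrophages, at 1.28 (adjusted p = 0.0229) and 2.34 (adjusted p = 0.0297). The first of these calls ended without either eosinophil-labelled array and the second without eosinophil-labelled array 2, where the difference was 1.50, and both without either macrophage-labelled array. The first also ended without T2M and eosinophil-labelled array 1 together (1.34, adjusted p = 0.0857). Probe set 1456006_at differed by over 3 between the eosinophil-labelled arrays (8.59 and 12.02) and was called in no pair.

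Bak1 encodes BAK, an effector that resides in the outer mitochondrial membrane. Probe set 1418991_at was at 7.61, 8.50 and 7.15 on T2M arrays, 7.85 and 8.58 on eosinophil-labelled, 9.08 and 9.51 on neutrophil-labelled and 9.91 and 9.80 on macrophage-labelled arrays. All T2M and eosinophil-labelled arrays lay below all arrays of the other labels. T2M was 4.3-fold lower than macrophages (-2.11, SE 0.41, adjusted p = 0.0171), a call that ended only without a macrophage-labelled array among the 9 fits (-2.48 to -1.80). Against neutrophils T2M was at -1.54 (adjusted p = 0.112), and eosinophils minus macrophages gave -1.64 (adjusted p = 0.0506), neither called. Probe set 1425716_s_at had the same order and a wider spread, at 7.40, 9.60 and 8.65 on T2M, 7.87 and 10.61 on eosinophil-labelled, 10.43 and 11.00 on neutrophil-labelled and 11.49 and 11.34 on macrophage-labelled arrays. Its T2M minus macrophage difference of -2.87 did not pass (SE 0.83, adjusted p = 0.0598), but did without either eosinophil-labelled array, with adjusted p from 0.0278.

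Bid encodes a BH3-only protein that caspase-8 cleaves, which links death receptors to mitochondria. Probe set 1448560_at was at 5.69, 5.72 and 5.83 on T2M arrays, against 6.70 and 7.87 on eosinophil-labelled, 6.03 and 7.03 on neutrophil-labelled and 7.84 and 7.46 on macrophage-labelled arrays. The T2M arrays were the 3 lowest of the 9 and spread by less than 0.2. T2M was lower than macrophages (-1.90, SE 0.41, adjusted p = 0.0232), which ended without T2M array 2 or 3 or either macrophage-labelled array (-2.10 to -1.71). All T2M values were below the background level. Probe set 1417045_at, the brightest, was at 7.75, 7.08 and 7.66 on T2M, 8.89 and 8.57 on eosinophil-labelled, 7.44 and 7.73 on neutrophil-labelled and 8.15 and 8.20 on macrophage-labelled arrays. Both eosinophil-labelled arrays were the highest, and T2M minus eosinophils was -1.23 (SE 0.27, adjusted p = 0.0518), just outside the threshold. It passed without either neutrophil-labelled array, with adjusted p from 0.0466. For T2M minus macrophages this brightest probe set gave -0.68 and did not pass (adjusted p = 0.126). All 3 Bid probe sets were lowest in T2M, and 1447873_x_at, with values from 4.08 to 5.33, was at the background level.

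Bad encodes a BH3-only protein whose activity is held down by phosphorylation downstream of survival cytokines. Probe set 1416583_at was at 5.83, 6.57 and 6.06 on T2M arrays, 5.75 and 6.74 on eosinophil-labelled, 6.83 and 8.21 on neutrophil-labelled and 8.63 and 8.26 on macrophage-labelled arrays. The neutrophil-labelled arrays differed from each other by more than T2M and eosinophils did on average. T2M was lower than macrophages (-2.29, SE 0.47, adjusted p = 0.0202) and so were eosinophils (-2.19, SE 0.52, adjusted p = 0.0293). The first call ended without T2M array 3 or either macrophage-labelled array (-2.50 to -2.10) and the second without eosinophil-labelled array 1 or either macrophage-labelled array (-2.69 to -1.70). The second also ended without T2M and eosinophil-labelled array 1 together (-1.70, adjusted p = 0.142). The means of 6.15 in T2M and 6.25 in eosinophils were below the background level. The brighter probe set 1416582_a_at was at 8.19, 8.91 and 8.37 on T2M arrays and 9.29 and 8.96 on macrophage-labelled arrays, and differed by -0.63 without passing (adjusted p = 0.185). For eosinophils minus macrophages it gave -0.82 and did not pass either (adjusted p = 0.149).

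Bbc3 and Pmaip1 encode PUMA and NOXA, BH3-only proteins known as targets of p53, and neither was called by limma in any of 6 pairs. They had 1 and 3 pairs at an unadjusted p under 0.05, a limit that 6864 to 14607 of all 45037 probe sets passed in each pair. Bbc3 1423315_at was at 6.13, 6.34 and 6.67 on T2M arrays, against 6.58 and 6.40 on eosinophil-labelled, 7.21 and 6.48 on neutrophil-labelled and 7.14 and 6.99 on macrophage-labelled arrays. These values lay on both sides of the background level of 6.65, and its mean over the 9 arrays was 6.66. Pmaip1 1418203_at was at 10.28, 9.77 and 10.24 on T2M arrays, 10.68 and 10.53 on eosinophil-labelled, 9.31 and 10.20 on neutrophil-labelled and 11.08 and 10.67 on macrophage-labelled arrays, with the lowest value and the widest gap in the neutrophil-labelled pair. Its widest label difference, neutrophils minus macrophages, was -1.11 (SE 0.35, adjusted p = 0.206). Without neutrophil-labelled array 2, where 1 array of that label remained, it was -1.56.

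**Figure D4:**
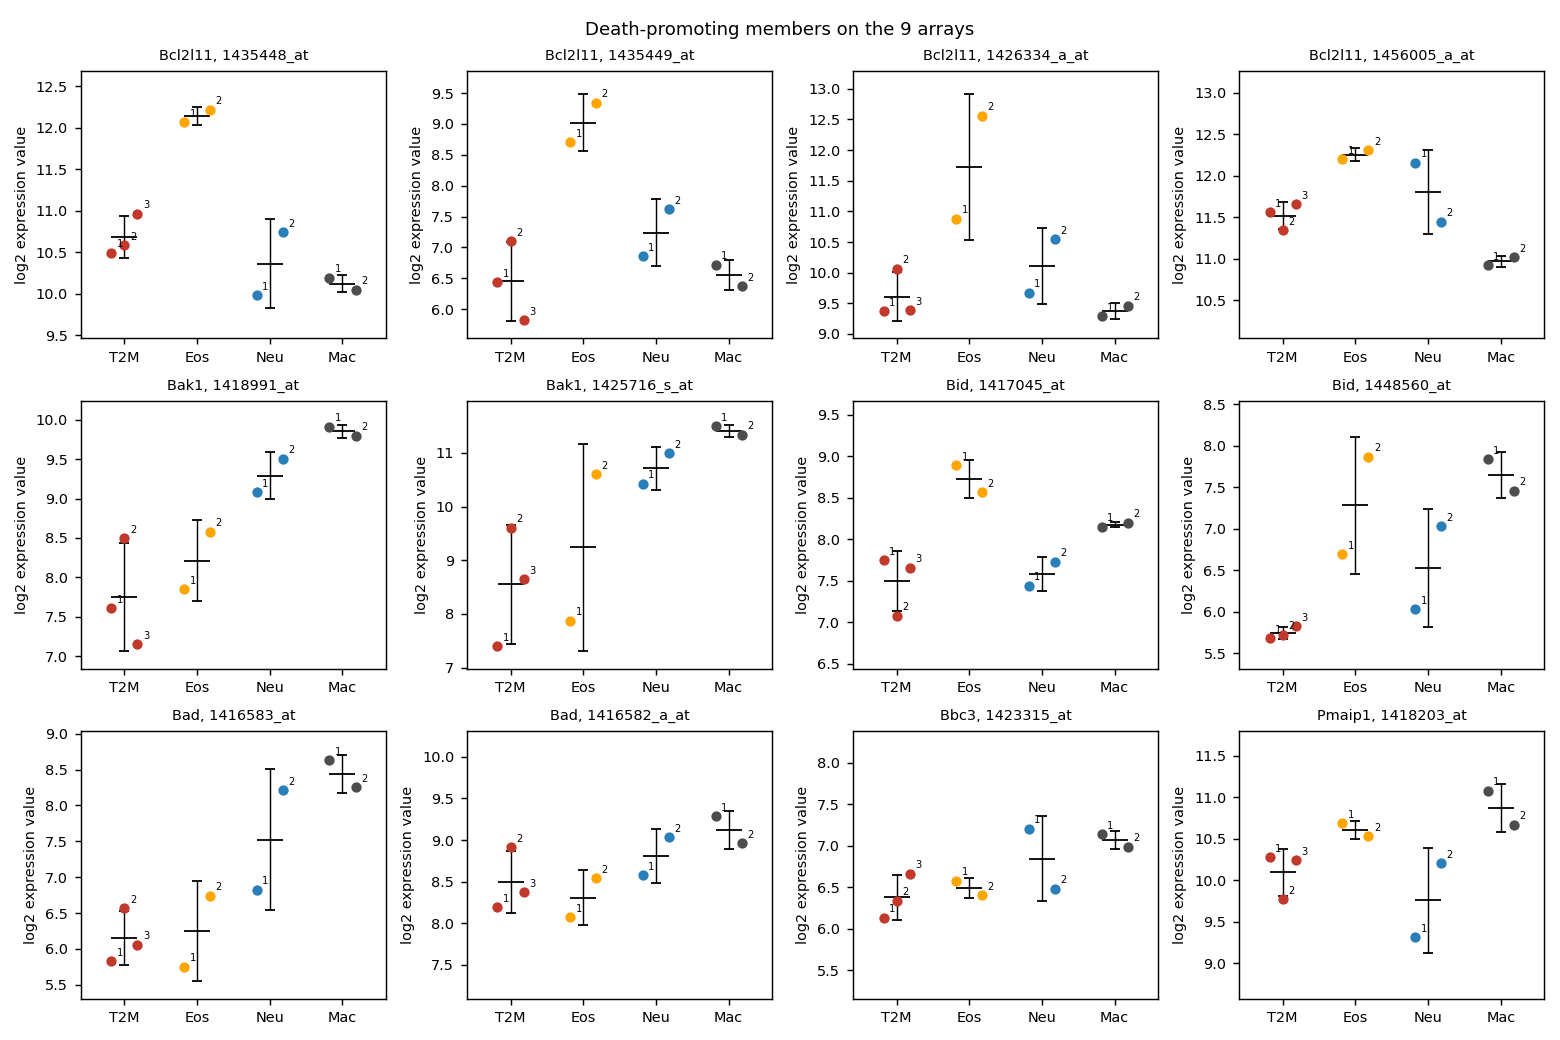
Log2 expression values of 12 probe sets of the death-promoting members on each array (points, numbered by array within its label: T2M, eosinophils, neutrophils, macrophages), with the mean and SD of each label in black and a separate axis per panel. Bcl2l11 probe sets are highest on eosinophil-labelled arrays, whereas the label means of the Bak1 and Bad probe sets are highest in macrophages.

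Arrays of T2M and eosinophils did not overlap for 14 of the 29 member probe sets (48.3%, beside 31.5% of all probe sets), those of T2M and neutrophils for 11 (37.9%, beside 25.5%) and those of T2M and macrophages for 20 (69.0%, beside 63.9%). Eosinophil-labelled arrays did not overlap neutrophil-labelled arrays for 24 (82.8%, beside 39.2%) or macrophage-labelled arrays for 27 (93.1%, beside 73.7%), and for neutrophils and macrophages the count was 17 (58.6%, beside 56.8%). Over all 29 probe sets, the label mean was highest in T2M for 2, in eosinophils for 16, in neutrophils for 3 and in macrophages for 8. The lowest mean was in T2M for 10, in eosinophils for 6, in neutrophils for 5 and in macrophages for 8. Both probe sets highest in T2M were of survival members, Bcl2 1440770_at and Mcl1 1456381_x_at. The first averaged below the background level. The second was only 0.07 above the eosinophil label in T2M, with overlapping arrays. The 10 lowest in T2M were 2 of Mcl1, 1 of Bcl2l11, 2 of Bak1, 3 of Bid, 1 of Bbc3 and 1 of Bad. Neither order was tested as such, and probe sets of 1 gene share their target. The highest and lowest label were not counted over all probe sets, so these counts only describe the members.

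Of 16 other genes named for the BCL2 family, 11 were measured, each by its brightest probe set. T2M had 1 lower than eosinophils (Bcl2l15), 1 higher than neutrophils (Bcl2l15 again) and 0 called by limma against macrophages, with medians of 0.08, 0.06 and 0.50. Against macrophages 6 were at an unadjusted p under 0.05, beside 14607 of all 45037 probe sets. A fit of 1 probe set per gene called 812, 513 and 3123 of 18193 in these comparisons, a share to set beside this and the later lists. Bcl2l15, a family member described mainly in the gut, was at 6.88 ± 0.62 (SD, n = 3) on T2M arrays, 9.15 ± 0.17 on eosinophil-labelled, 3.98 ± 0.28 on neutrophil-labelled and 5.97 ± 0.29 on macrophage-labelled arrays (n = 2 each). It differed by -2.27 for T2M minus eosinophils (SE 0.36, adjusted p = 0.0181), 2.90 for T2M minus neutrophils (adjusted p = 0.0171) and 5.17 for eosinophils minus neutrophils (adjusted p = 0.00167). Bcl2l2, which encodes the survival protein BCL-W, was lower in eosinophils than in neutrophils (-1.83, adjusted p = 0.0301) and macrophages (-1.60, adjusted p = 0.0273), and its T2M minus eosinophil difference of 1.07 did not pass (adjusted p = 0.164). The uncalled genes with the largest T2M differences were Bcl2l13 against eosinophils (-1.23) and macrophages (-1.40, adjusted p = 0.0501), and Bcl2l2 against neutrophils (-0.76). The A1 genes (Bcl2a1a to Bcl2a1d) were not analysed here.

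Of 11 measured apoptosome and caspase genes (13 listed), 7 were called lower in T2M than in macrophages and 0 higher, beside 7.85% of all probe sets called lower. Their median was -1.26, beside 0.17 over all probe sets, and Apaf1, Casp6, Aifm1 and Endog did not pass. With 1 probe set per gene, as in the list, 1935 of 18193 were called lower and the median of all was 0.18. Without dim probe sets, 3166 of 22518 were called lower and the median of all was -0.245. Htra2, a mitochondrial protease released in apoptosis, differed by -2.59 (SE 0.35, adjusted p = 0.00485), the initiator caspase genes Casp2 by -2.58 (adjusted p = 0.000875) and Casp9 by -1.62 (adjusted p = 0.00438). Apaf1, the apoptosome scaffold, was not called there (-1.40, adjusted p = 0.252). Cycs, cytochrome c (-1.91, adjusted p = 0.0181), and Casp6 (-1.91, adjusted p = 0.0283) were lower in T2M than in neutrophils, and Htra2 did not pass (-1.17, adjusted p = 0.152). Against eosinophils limma called 0 of the 11 (1 at an unadjusted p under 0.05, beside 6864 of all 45037 probe sets), Aifm1 differing most (1.09, adjusted p = 0.439), with a median of -0.36. The list was also lower in the other labels than in macrophages. Eosinophils minus macrophages gave 4 lower and 0 higher (median -1.05), and neutrophils minus macrophages 2 lower and 0 higher (median -0.64). With 1 probe set per gene, 2092 and 206 of 18193 were called lower in these 2 pairs.

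The death receptor list, with 13 of 14 genes measured, gave 1 call in each direction for T2M against eosinophils, 1 upward against neutrophils, and 3 upward and 1 downward against macrophages. With 1 probe set per gene, 812, 513 and 3123 of 18193 were called in these comparisons. Fas, the receptor for Fas ligand, was lower in T2M than in eosinophils (-1.96, SE 0.41, adjusted p = 0.044) and higher than in macrophages (2.07, adjusted p = 0.0171). Its level was 8.21 ± 0.39 (SD, n = 3) in T2M, against 10.18 ± 0.51 in the eosinophil label (n = 2), the highest of the 4. Mlkl, the necroptosis executor, was higher in T2M than in eosinophils (1.10, adjusted p = 0.0296) and macrophages (1.17, adjusted p = 0.011). Its values were below the background level on every array, so these are differences in signal and expression of Mlkl was not shown. Cyld, a deubiquitinase that acts on RIPK1 complexes, was higher in T2M than in neutrophils (2.18, adjusted p = 0.018) and macrophages (1.76, adjusted p = 0.00853). The TNF receptor gene Tnfrsf1a fell below its macrophage level in T2M (-1.90, adjusted p = 0.0378) and did not pass against eosinophils (-1.87) or neutrophils (-1.55), nor did Fasl, the gene of Fas ligand, against macrophages (1.65, adjusted p = 0.276). Of the 8 measured inhibitor of apoptosis genes, only Birc3, the gene of cIAP2, was called in the T2M comparisons, higher in T2M than in neutrophils (1.37, adjusted p = 0.0483) and macrophages (1.22, adjusted p = 0.0238), whereas Naip5 (1.32) against eosinophils, Birc2 (1.62) against neutrophils and Naip2 (-1.32) against macrophages did not pass.

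**Figure D5:**
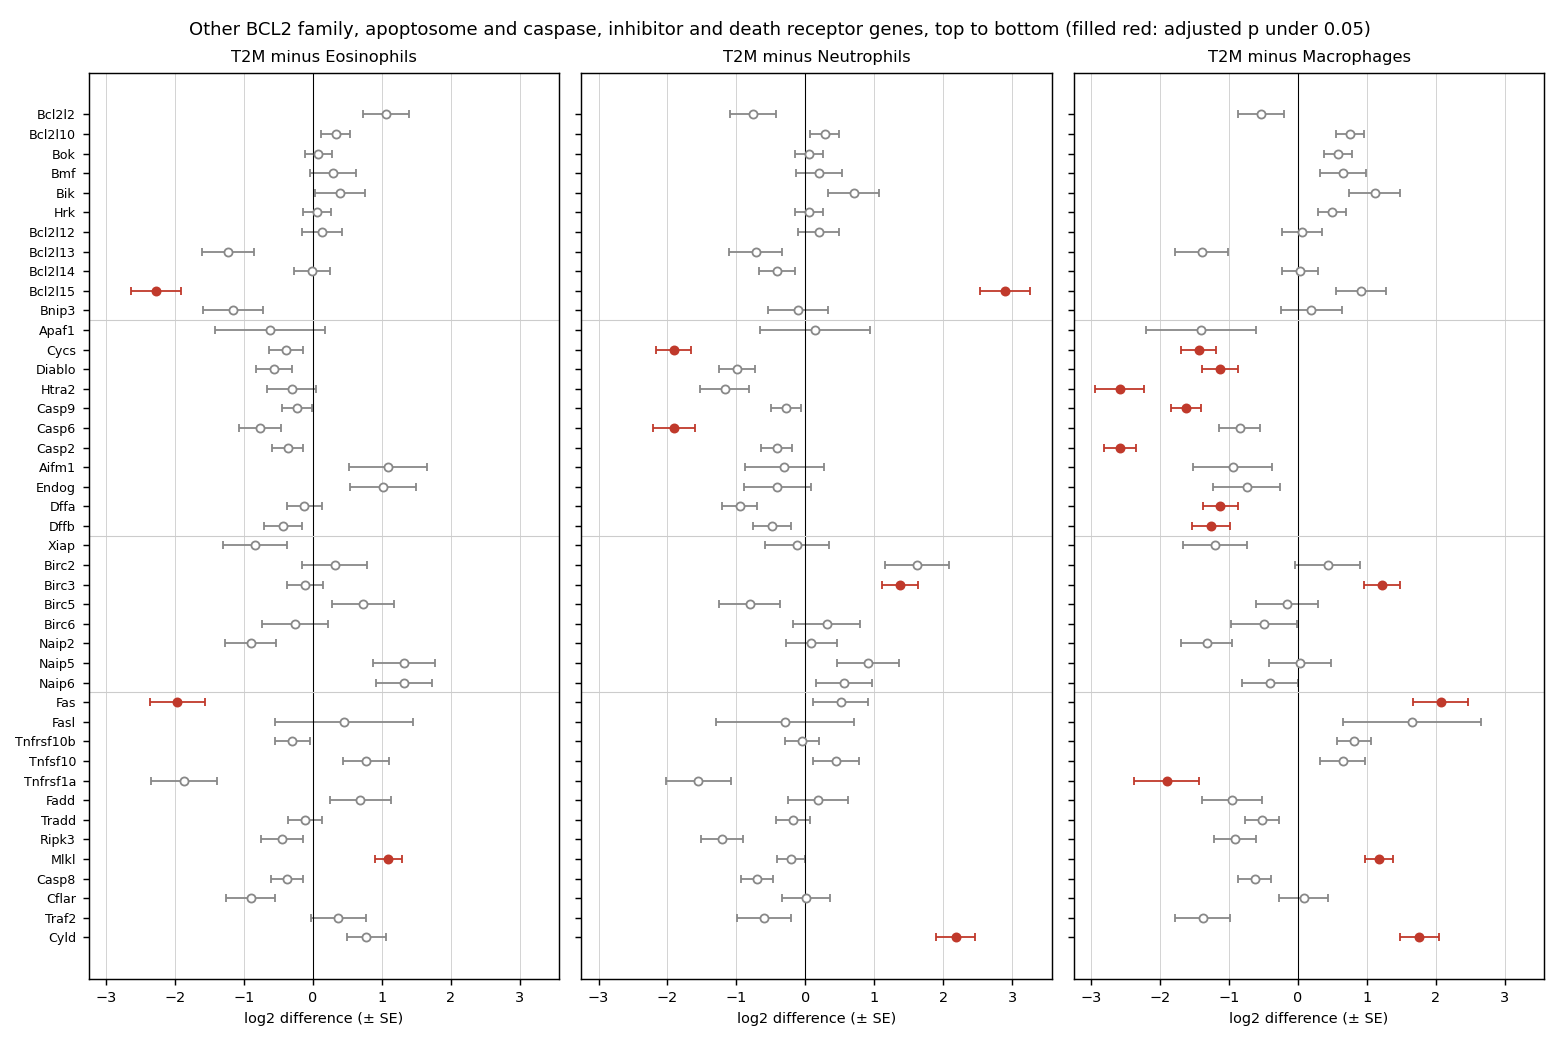
Log2 difference with its standard error for other BCL2 family, apoptosome and caspase, inhibitor of apoptosis and death receptor genes (rows, 1 probe set per gene, lists separated by lines), T2M minus each other label (panels), with filled red points for genes called by limma. The calls of the apoptosome and caspase list all lie left of 0, 7 of them in T2M minus macrophages.

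Genes that act on the members were measured for 18 of 19 listed. Limma called 0 between T2M and eosinophils, with Trib1, a pseudokinase, differing most (-1.78, adjusted p = 0.0994). At an unadjusted p under 0.05 were 7 of the 18, beside 6864 of all 45037 probe sets. Fbxw7, a ubiquitin ligase subunit that targets MCL1, was the 1 gene higher in T2M than in neutrophils (1.63, adjusted p = 0.0378), where Akt1 did not pass (-1.37). Between T2M and macrophages 7 of the 18 were called, beside 3123 of 18193 with 1 probe set per gene. Higher in T2M were 4 of the 7, among them Trib1 (1.95, adjusted p = 0.0352). The kinase gene Akt1 (-1.80, adjusted p = 0.0471) and Jun (-1.75, adjusted p = 0.0125) were lower, and Ddit3 was not called (1.01, adjusted p = 0.0934). Foxo3, whose product is known to act on Bcl2l11, was not called in any pair.

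Of 13 receptors for survival cytokines, 12 were measured. T2M had 1 lower than eosinophils, the G-CSF receptor Csf3r (-3.98, SE 0.67, adjusted p = 0.0216), and 1 higher than neutrophils, Kit (2.08, adjusted p = 0.0383). For Kit, every T2M and neutrophil-labelled array was below the background level, so this is a difference in signal only. Between T2M and macrophages 5 of the 12 were called, beside 3123 of 18193 with 1 probe set per gene. Higher in T2M were 3 of the 5, among them Il5ra (3.80, adjusted p = 0.0087) and Il7r (2.95, adjusted p = 0.0499). Tnfrsf13b (-2.45, adjusted p = 0.0126) and Kit (-1.85, adjusted p = 0.0182) were lower, and Csf2rb2 was not called (1.43, adjusted p = 0.0579). Il5ra encodes a receptor of the gates, for which T2M was sorted as negative and eosinophils as positive. Its RNA had the opposite order, at a mean of 7.58 in T2M and 5.19 in the eosinophil label. It did not pass against eosinophils (2.40) or neutrophils (2.45). Csf2rb, the shared chain of the GM-CSF, IL-3 and IL-5 receptors, was within 0.85 of each other label in T2M and was not called.

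Genes whose values followed a member most closely were ranked by Pearson's r over the 9 arrays among 7575 genes whose label means spanned over 1, each by its brightest probe set. These values share arrays and labels, so r is a description. For Bcl2 1422938_at they were Cerk (0.981), Dync1h1 (0.972) and Tmsb10 (0.972). For Bcl2l11 1456005_a_at they were Icam4 (0.986), Stfa3 (0.962) and Sfmbt2 (0.948), and for Bcl2l1 1420888_at Dnah9 (0.956), Cxcr4 (0.950) and Rnd1 (0.949). Bak1 1425716_s_at was followed by Cst3 (0.987), Trpc4ap (0.984) and Pold4 (0.983), and Bid 1417045_at by Atg3 (0.991), Ssh2 (0.989) and Ifit2 (0.981). For Pmaip1 1418203_at they were Pcmtd2 (0.964), Tdrd7 (0.961) and Mknk1 (0.958). Stfa3, a stefin gene of neutrophils, was at a label mean of 4.86 in T2M, 8.73 in eosinophils, 6.10 in neutrophils and 3.70 in macrophages.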

How the data were processed

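Values on the log2 scale were deposited by the authors for every probe set of each array. The submitters' processing notes name limma, affy and RMA, with settings not given in the sources used here. Array medians ran from 5.48 to 5.68. Per the labels' protocols, 50 ng of RNA per array was amplified before hybridisation, which can weaken signal far from the 3′ end.

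The 45037 probe sets left after 64 control probe sets were fitted together in R 4.3.3, by limma 3.58.1 (lmFit on label means of all 9 arrays, eBayes, two-sided), with 5 residual degrees of freedom. The prior had 3.01 degrees of freedom and an SD of 0.327. The 6 contrasts cover every pair of labels, with a median SE of 0.312 where T2M was involved and 0.342 elsewhere. Probe sets were named through the platform annotation (34945 with 1 symbol, 932 with several, 9160 with none). All 29 member probe sets matched the RefSeq gene table of GRCm38.p6 by gene ID, with 0 symbols changed. The fit was tested on simulated data. Python 3.11.15 and matplotlib 3.10.9 made the figures.

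Members and gene lists were chosen with earlier results of these data known. Listed genes outside the family were each taken by the brightest probe set over the 9 arrays. Up to 3 called and 1 uncalled gene with the largest differences are named per list and T2M comparison, and others named, such as genes of the pairs without T2M, were chosen after their values were seen. Every marker list is given by its mean level where it moved with a label. T cell, B cell, NK cell and mast cell or basophil lists averaged 6.63 to 7.02, 7.08 to 8.07, 7.09 to 7.80 and 4.27 to 5.80 on T2M arrays. On the other 6 arrays they averaged 5.95 to 6.46, 6.15 to 8.41, 6.29 to 8.29 and 3.85 to 4.36.

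Alternatives changed the probe sets fitted, a filter on dim probe sets (mean under 5.64), scaling between arrays, moderation, array weights, samples, the replicate number and the macrophage-labelled pair, or left out arrays.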

Additional observations from a re-analysis of the deposited data

How the results depend on the processing

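Of the 17 called member differences, each in up to 19 other fits, the sign was kept in all 311 refitted values, with the call kept in 223 and ended in 88. Members called numbered 3, 0, 4, 2, 8 and 0 for T2M against eosinophils, neutrophils and macrophages, eosinophils against neutrophils and macrophages, and neutrophils against macrophages. Using 1 probe set per gene, which tests fewer member probe sets, gave 1 for T2M against macrophages, 1 for eosinophils against neutrophils and 3 for eosinophils against macrophages. Array weights gave 6, 17, 1 and 15 for T2M against eosinophils, T2M against macrophages and the eosinophil comparisons with neutrophils and macrophages. Fits of only the labels compared, which hold fewer arrays, gave 0 for T2M against eosinophils and 0 for eosinophils against neutrophils. Averaging the macrophage-labelled arrays gave 0, 0 and 1 for T2M against eosinophils, T2M against macrophages and eosinophils against macrophages. Without T2M and eosinophil array 1 together, only 1 eosinophil-labelled array remained, so call counts of that fit are not given. The cause of these changes was not tested. Leaving out each array in turn gave 0 to 4, 0 to 1, 0 to 5, 1 to 3, 1 to 9 and 0 to 2, in the order above. The labels do not say that replicate numbers mark shared pools. Deviations of same-numbered arrays correlated at 0.46 and 0.38 between T2M and eosinophils and at -0.10 to 0.14 between other labels, and the replicate number as a block gave 1 member call for T2M against eosinophils and 2 for T2M against macrophages, ending Bcl2 1422938_at (adjusted p = 0.0806), Bcl2l11 1435448_at (0.074), Bcl2l1 1420887_a_at (0.0699) and Bid 1448560_at (0.0544). Over all probe sets, the counts of 1421, 804, 5689, 2557, 5797 and 676 ran in other processing from 570 to 2532, 0 to 1151, 560 to 20748, 0 to 2654, 1301 to 12484 and 93 to 714, and without 1 array from 334 to 2199, 47 to 1564, 566 to 9477, 1125 to 3608, 1248 to 8120 and 87 to 5457. With arrays set to 1 shared median, the median difference of all probe sets was 0.03 in place of 0.17 for T2M minus macrophages and 73.5% of calls were lower in place of 62.2%, and quantile normalization moved that share for T2M minus neutrophils from 52.1% to 42.0%. Probe sets near the background level limit what can be said of Bbc3, 4 of the 5 Bcl2 probe sets, Bcl2l1 1426050_at and Bid 1447873_x_at. Outside the members the same holds for Mlkl, and for Kit in T2M against neutrophils. In other called differences only the lower label had a mean below that level. Among them were Casp2 (6.21), Tnfrsf13b (6.41) and Kit (5.80) in T2M against macrophages. Fas (6.15), Il7r (5.85) and Il5ra (3.78) were below it in macrophages, Bcl2l15 in neutrophils (3.98) and Bcl2l2 in eosinophils (5.53). The size of these differences is limited in the same way. Without dim probe sets the median of all was -0.245 for T2M and -0.177 for eosinophils against macrophages.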
